A study of Mus musculus with 8 samples.

Results

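Clostridia outside the 4 large gut families made up a small and very uneven fraction of the stool bacteria of 8 mice. The members were all amplicon sequence variants (ASVs, distinct 16S read sequences) assigned to the class Clostridia that carried at least 1 read and were not assigned to Lachnospiraceae, Oscillospiraceae, Ruminococcaceae or Butyricicoccaceae. This rule left 34 ASVs in 10 lineages, out of 255 Clostridia ASVs and 434 ASVs of any kind with reads. They held 13706 of 914504 reads, which is 1.50%. In the table an ASV has a taxonomy string and no sequence here, and 27 of the 34 members shared their string with another member, so ASVs are named by their row number in the deposited table (ASV2485, for example).

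Clostridia are anaerobic Bacillota that ferment plant fibre, mucin sugars and amino acids in the large intestine, and many of them form spores. The vadinBB60 group and UCG-014 are lineages known mainly from 16S surveys, and their members in the mouse gut are largely uncultured. Candidatus Arthromitus, the segmented filamentous bacteria, attaches to the epithelium of the small intestine and is known for inducing T helper 17 cells in mice.

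Stool came from 4 female Gpr15l-/- mice (labelled ko, called knockout here) and 4 female controls (labelled wt), littermates that had lived together for 8 weeks. The product of Gpr15l is secreted and binds GPR15, a receptor that guides T cells to the large intestine, and the comparison asks whether the bacteria differ between genotypes that share an environment. The labels give no age, strain, cage, litter or sequencing run, and they do not name the allele further. Mice are numbered 1 to 4 within each genotype in order of accession, and equal numbers do not link a knockout to a control.

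Depth differed between the genotypes and must be read beside every value. Knockout libraries held 129792 to 226654 reads and control libraries 38578 to 122026, so each knockout library was deeper than each control library. For a mouse with 0 reads, a floor of 3 reads corresponds to a share of 0.00132% in knockout 1, the deepest library, and of 0.00778% in control 2, the shallowest. The table holds few singletons (2 of its 2035 non-zero values are 1 read), and the smallest non-zero value of a member was 3 reads, so a listed 0 can hide a few reads. The depth of a library was therefore tried as a covariate, and presence was also computed at 38578 reads per mouse.

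The members together took 0.0918%, 1.80%, 2.98% and 1.78% of reads in knockouts 1 to 4, and 1.26%, 4.23%, 1.51% and 1.07% in controls 1 to 4. The groups overlapped, with the lowest value in knockout 1 and the highest in control 2. The means were 1.66% ± 1.19 (SD, n = 4) in knockouts and 2.02% ± 1.48 (SD, n = 4) in controls. Their order turned when knockout 1 or control 2 was left out, with log2 ratios of the mean shares of 0.12 and 0.38 in place of -0.28. Within the class Clostridia the members' share was 9.59% ± 6.23 (SD, n = 4) for knockouts and 10.1% ± 6.32 (SD, n = 4) for controls. The low value of knockout 1 was not particular to the members. Knockout 1 was also lowest of the 8 mice in all Clostridia (5.13% of reads, the others 10.6% to 29.7%) and in each of the 4 excluded families. Within the class it was lowest too, with 1.79% of Clostridia reads in the members.

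The lineages that made up these reads also differed between mice. The vadinBB60 group supplied 77.9%, 27.3%, 10.3% and 3.33% of the members' reads in knockouts 1 to 4. It supplied 47.6%, 97.1%, 43.8% and 46.4% in controls 1 to 4. UCG-014 was the leading lineage in knockouts 3 and 4, with 46.1% and 59.6% of the members' reads, while it gave 0.491% in control 2. Monoglobaceae was the leading lineage in knockout 2, with 27.9%.

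**Figure D1:**
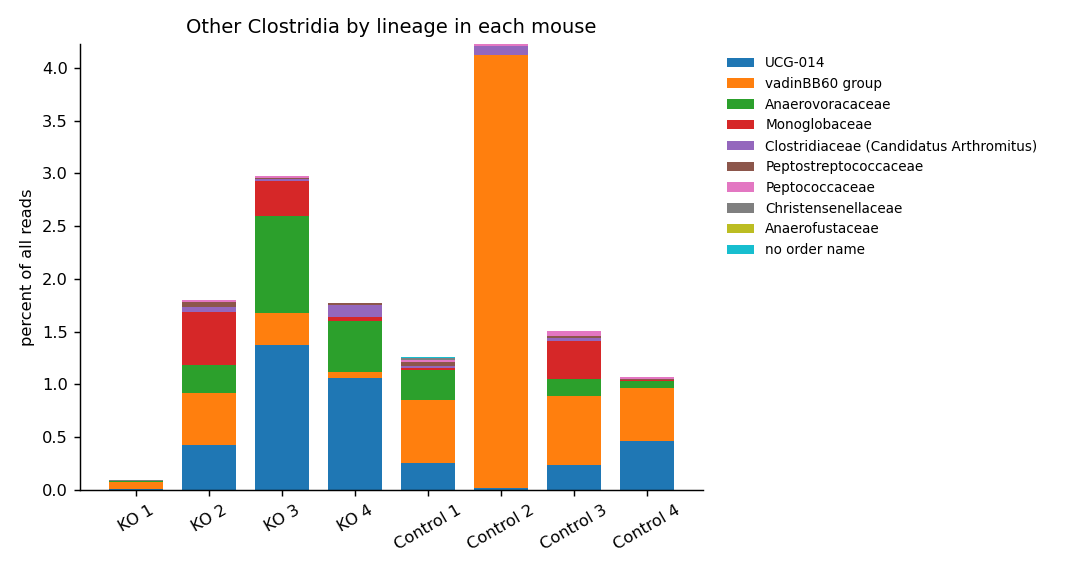
Each bar is 1 mouse (KO 1 to 4 are knockouts) and its height is the percent of all reads in the 34 members, coloured by lineage. The bar of control 2 reaches 4.23% and is nearly all vadinBB60 group, whereas those of knockouts 3 and 4 are largest in UCG-014.

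Presence also varied between mice. Of the 34 members, 4 were seen in all 8 mice, namely ASV3373, ASV3366 and ASV2962 of the vadinBB60 group and ASV3619, Candidatus Arthromitus. That is 11.8% of the members, against 28.3% (123 of 434) of all ASVs with reads. Another 8 members (23.5%) were seen in 1 mouse only, close to the 26.3% (114 of 434) of all ASVs with reads. In all, 5 members had under 10 reads. Both genotypes held 25 of the members, knockouts alone held 4 and controls alone held 5. No member was present in at least 3 mice of 1 genotype and in none of the other. For these counts by genotype the share over all ASVs was not computed.

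Knockout 1 had the fewest members although its library was the deepest. The number of member ASVs was 11, 26, 22 and 16 in knockouts 1 to 4 and 23, 16, 21 and 24 in controls 1 to 4. At 38578 reads per mouse the expected numbers were 9.61, 25.1, 21.6 and 15.4, and 23.0, 16, 21.0 and 23.2. The equal-depth means were 2.86 ASVs lower in knockouts, and only 0.093 lower without knockout 1. The groups overlapped, and 23 of the 34 members were missing from knockout 1, 4 of them seen in all of the other mice.

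**Figure D2:**
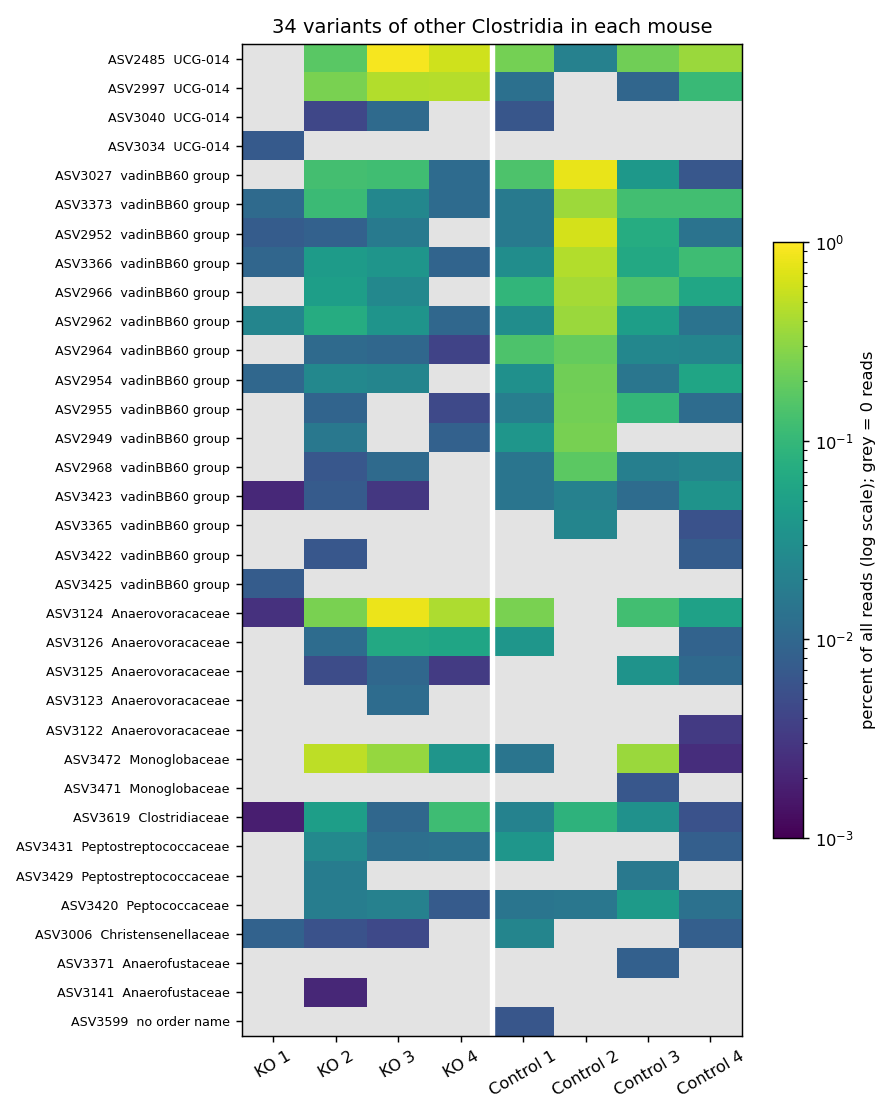
Rows are the 34 members with their lineage, columns are the 8 mice with knockouts left of the white line, and colour is the percent of all reads on a log scale, with grey for 0 reads. Grey cells dominate the column of knockout 1, where 23 members were missing, and control 2 is brightest in the vadinBB60 rows and mostly grey in the others.

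The vadinBB60 group was the lineage in which the genotypes stood apart. Its 15 ASVs took 0.0715%, 0.493%, 0.307% and 0.0592% of reads in knockouts 1 to 4 and 0.598%, 4.10%, 0.662% and 0.498% in controls 1 to 4. Every knockout lay below every control, but knockout 2 and control 4 were almost level. Their 95% Wilson intervals, 0.457% to 0.531% and 0.460% to 0.539%, overlapped, and such intervals cover counting error only. The means were 0.233% ± 0.208 in knockouts and 1.46% ± 1.76 in controls (SD, n = 4 mice each). As a percent of Clostridia reads the groups overlapped, with 2.34% in knockout 2 and 2.23% in control 3. Among reads outside Muribaculaceae and Rikenellaceae they overlapped too, with 1.04% in knockout 2 and 0.954% in control 4.

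This difference did not pass the edgeR test across families. The edgeR quasi-likelihood test gave a log2 fold change, knockout over control, of -2.49 ± 0.82 (SE), a 5.63-fold lower level, with a Benjamini-Hochberg adjusted p of 0.176 over the 39 families tested. The unadjusted edgeR p was 0.0136. A two-sided exact permutation test of the mean shares gave p = 0.0286, the smallest that 4 mice against 4 allow, and 0.371 after adjustment over the same families. Control 2 carried much of the difference, since without it the edgeR log2 fold change was -1.29 ± 0.56 (adjusted p = 0.550). DESeq2 gave the group a log2 fold change of -2.43 ± 0.84 but no p under its default filters. With its outlier and mean filters off, an alternative added after the data were seen, DESeq2 called the group (adjusted p = 0.0380), and 10.3% of all families were called in that way. Without control 2 this DESeq2 fit gave -1.15 ± 0.56 (adjusted p = 0.290). With log2 library size as a covariate the edgeR value was -0.43 ± 1.06 (adjusted p = 0.932). As every knockout library was deeper than every control library, depth and genotype cannot be told apart fully in these 8 libraries.

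No member lineage passed the edgeR test. Of the 8 families of the members that were tested, 0 had an adjusted edgeR p under 0.05, where 5.13% of all families did (2 of 39, both outside Clostridia). At an unadjusted edgeR p under 0.05 there was 1 of 8, the vadinBB60 group, against 12.8% of all families. By non-overlap with knockouts below controls there was again 1 of 8, against 7.69% of all families. At the genus level 0 of 10 members passed and 1.27% of all 79 genera did. An unadjusted edgeR p under 0.05 was found for 1 of the 10, against 5 of all 79. Of the 8 families limma-voom called 0, with 1 at an unadjusted p under 0.05. Over all 39 families limma-voom called 2, with 4 at an unadjusted p under 0.05. DESeq2 under its default filters gave a p for 7 of the 8, leaving out the vadinBB60 group. It called 0 of those 7, with 0 at an unadjusted p under 0.05. Over all 39 families it called 3, with 5 at an unadjusted p under 0.05.

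**Figure D3:**
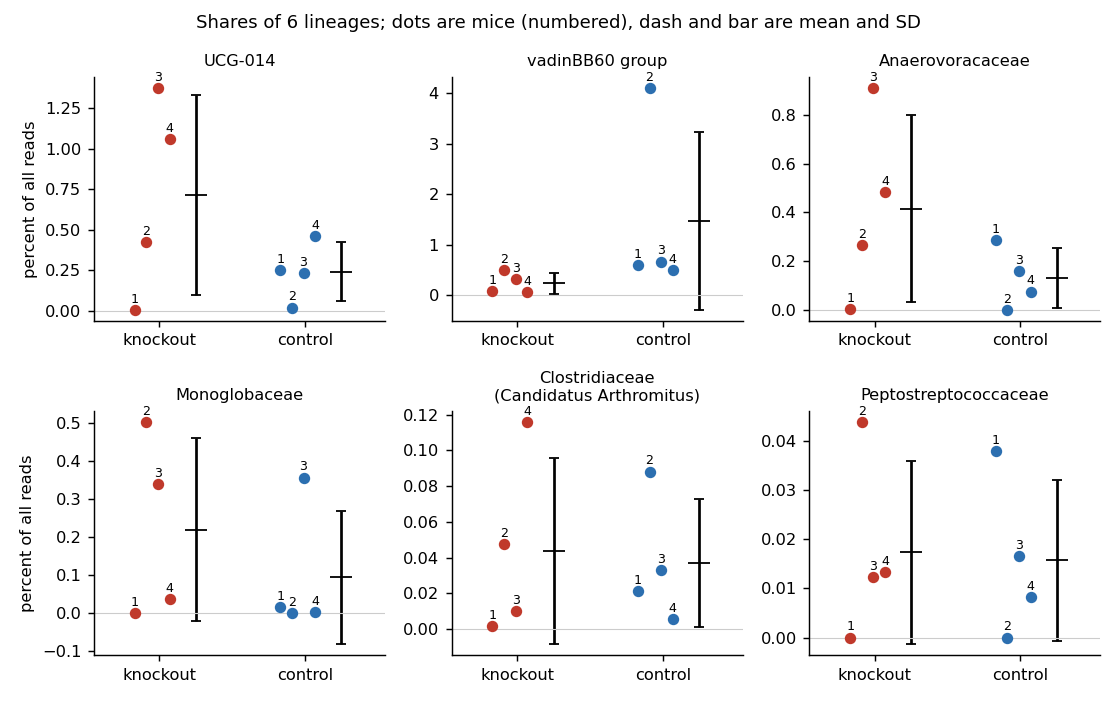
Each panel is a lineage, the vertical axis is the percent of all reads on a scale of its own, dots are mice with their number, and the dash and bar beside them are mean and SD of 4 mice. For the vadinBB60 group the controls lie above the knockouts with control 2 far from the rest at 4.10%, while in the other 5 lineages shown the genotypes overlap.

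The ASVs of the vadinBB60 group differed from mouse to mouse in which one led. ASV3027 led in knockouts 2 and 3 and in control 2, with 19.2% to 39.2% of the group's reads. It tied for the lead with ASV3373 in knockout 4 (19.1% each) and with ASV2964 in control 1 (24.4% each). ASV2962 led in knockout 1 (32.7%), ASV2966 in control 3 (22.2%) and ASV3373 in control 4 (25.0%). In each control no single ASV reached more than 25.0% of the group. The number of its ASVs was 7, 13, 10 and 7 in knockouts and 12, 13, 11 and 13 in controls, and 8.92 ± 3.00 against 12.2 ± 0.919 (SD, n = 4 mice each) at equal depth.

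Among the tested single ASVs, the genotypes did not overlap in ASV2966, ASV2964, ASV2955 and ASV2968, the last of them named after its values were seen. ASV2966 was at 0%, 0.0481%, 0.0254% and 0% in knockouts 1 to 4 and at 0.0951%, 0.391%, 0.147% and 0.0590% in controls 1 to 4. ASV2964 was at 0%, 0.0108%, 0.0100% and 0.00399% in knockouts and at 0.146%, 0.197%, 0.0248% and 0.0229% in controls. Every control exceeded every knockout in both ASVs, and control 2 was the highest mouse in both. ASV2955 was at 0%, 0.00934%, 0% and 0.00465% in knockouts and at 0.0190%, 0.228%, 0.0958% and 0.0115% in controls. ASV2968 was at 0%, 0.00647%, 0.0108% and 0% in knockouts and at 0.0148%, 0.176%, 0.0198% and 0.0229% in controls. The 4 ASVs thus had a lower share in each knockout than in each control, at levels of at most 0.0481% in knockouts. For ASV2966, ASV2964 and ASV2955 the Wilson intervals of knockout 2 and control 4, the nearest pair, overlapped. For ASV2955 they were 0.00546% to 0.0160% (13 reads) and 0.00683% to 0.0193% (14 reads). ASV2968 had 14 reads in knockout 3 against 7 and 12 in the smaller libraries of controls 1 and 3.

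Another 4 ASVs of high mean share overlapped between the genotypes. ASV3027 was at 0%, 0.128%, 0.120% and 0.0113% in knockouts and at 0.146%, 0.788%, 0.0396% and 0.00656% in controls. ASV3366 was at 0.00971%, 0.0445%, 0.0370% and 0.00931% in knockouts and at 0.0296%, 0.456%, 0.0644% and 0.117% in controls. In both, control 2 held the highest share, and knockouts 2 and 3 exceeded at least 1 control. ASV3373 was at 0.0110%, 0.111%, 0.0247% and 0.0113% in knockouts and at 0.0169%, 0.360%, 0.124% and 0.125% in controls. ASV2952 was at 0.00750%, 0.00862%, 0.0170% and 0% in knockouts and at 0.0169%, 0.638%, 0.0727% and 0.0139% in controls. ASV2952 thus was close to level in knockout 3 and control 1, and its control mean of 0.185% ± 0.303 (SD, n = 4) came mostly from control 2.

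ASV2962, ASV2954 and ASV2949 completed the group's more abundant members. Their mean shares were 0.0352% ± 0.0266, 0.0146% ± 0.0118 and 0.00611% ± 0.00764 in knockouts and 0.111% ± 0.162, 0.0826% ± 0.0970 and 0.0704% ± 0.117 in controls (SD, n = 4 mice each). All of them overlapped between the genotypes and peaked in control 2. ASV3423, ASV3365, ASV3422 and ASV3425, named after their values were seen, missed the filter and were not tested. Of these, ASV3423 also had a lower share in every knockout (0% to 0.00718%) than in every control (0.0116% to 0.0344%). Its reads were few, 10 in knockout 2 against 7, 8 and 7 in the smaller libraries of controls 1 to 3. Non-overlap over all ASVs was counted for tested ASVs only, so ASV3423 has no such share beside it.

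The edgeR tests of single ASVs gave no call either. A filter of at least 10 reads in at least 3 mice kept 21 of the 34 members, 11 of them in the vadinBB60 group. Of the 21, 6 reached 10 reads in at most 1 mouse of a genotype, so their passing leans on the genotype where they were high. They were ASV2955, ASV2968, ASV2997, ASV3472, ASV3125 and ASV3006. ASV2955 and ASV2968 are among the members counted below as lower in knockouts. ASV2964, also counted there, had 0, 15, 13 and 6 reads in knockouts 1 to 4, and ASV2966 had 0, 67, 33 and 0. All 4 reached 10 reads in at least 3 controls but not in at least 3 knockouts. Their number beside the share of all ASVs therefore cannot serve as a test. No member had an adjusted edgeR p under 0.05, and neither had any other of the 265 ASVs tested (0.0% called). At an unadjusted edgeR p under 0.05, 4 of 21 members were lower in knockouts, against 2.26% of all ASVs, and 0 of 21 were higher, against 10.6% of all ASVs. By non-overlap, 4 of 21 lay lower in every knockout, against 6.04% of all ASVs, and 0 of 21 lay higher, against 3.77%. All members in either set belong to the vadinBB60 group, and ASV2964 and ASV2955 are in both sets. With limma-voom there were 0 adjusted calls and 4 of 21 members at an unadjusted p under 0.05, against 40 of all 265 ASVs. DESeq2 under its default filters gave a p for 19 of the 21, 4 of them under 0.05, against 34 of all 265 ASVs. It gave an adjusted p for only 8 of the 21, of which 0 passed, against 1 call over all ASVs. With these filters off DESeq2 called 1 of 21 members, ASV2964 (-4.19 ± 1.22, adjusted p = 0.0396), against 1.51% of all ASVs, and without control 2 it called 0.

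The 4 members with an unadjusted edgeR p under 0.05 were ASV2964, ASV2952, ASV2955 and ASV3366. Their log2 fold changes were -3.77 ± 1.42, -4.17 ± 1.64, -4.17 ± 1.76 and -2.45 ± 1.06 (SE), and their adjusted edgeR p-values ran from 0.257 to 0.360. ASV2966 and ASV2968, which also did not overlap, stood at -3.07 ± 1.63 and -3.74 ± 1.72, with adjusted edgeR p-values of 0.487 and 0.383. All 11 tested ASVs of the group had a log2 fold change below 0, with a median of -3.07, against 114 of all 265 ASVs below 0 and a median of 0.19. The 10 tested members of other lineages had 8 values above 0 and 2 below, with a median of 1.08. In the group, ASV2964, ASV2966, ASV2955 and ASV2968 reached 10 reads in at least 3 controls but not in at least 3 knockouts. Among the 8 above 0, the reverse held for ASV2997, ASV3472, ASV3126 and ASV3431. These members passed the filter through the genotype where they were high, so the signs are no test of direction. The vadinBB60 ASVs are not independent of each other, since they share the libraries and all 11 were highest in control 2. Without control 2, 9 of the 11 were below 0 with a median of -1.39, and with log2 library size as a covariate 7 were, and the group's median was -0.39 where that of all ASVs was 0.50.

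**Figure D4:**
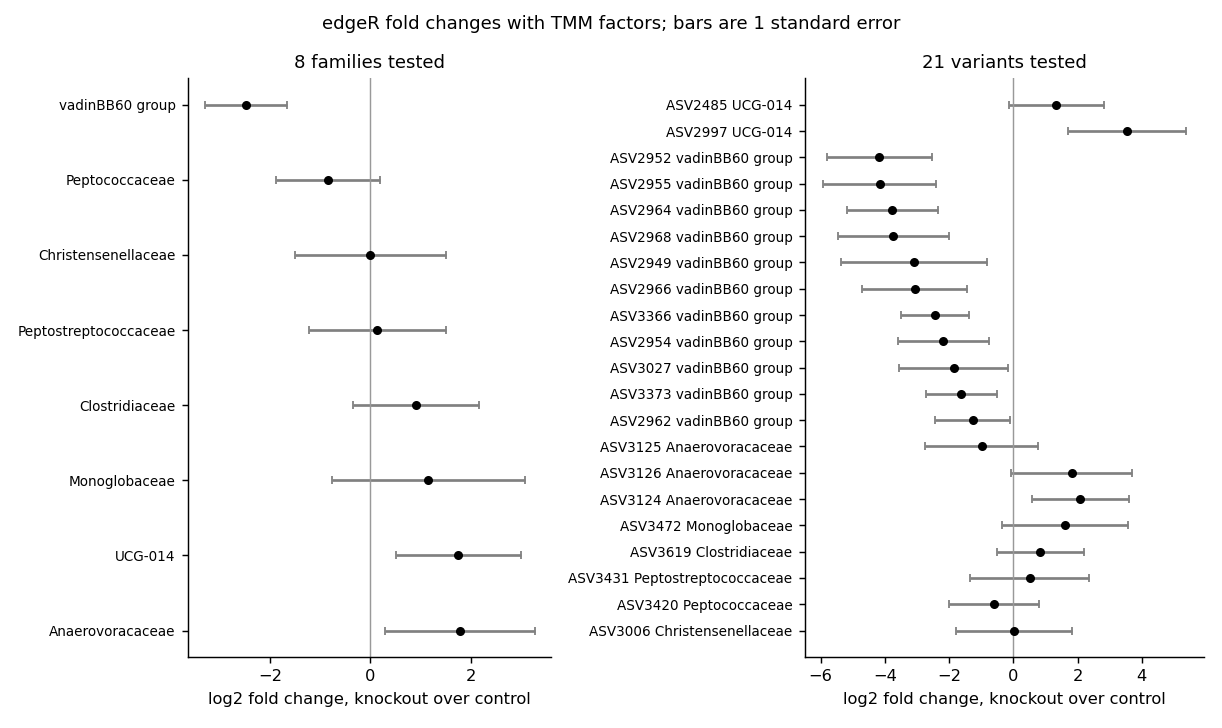
Points are edgeR log2 fold changes, knockout over control, with bars of 1 standard error, for the 8 tested families (left) and the 21 tested ASVs (right), and the vertical line marks 0. All 11 vadinBB60 ASVs lie left of 0 and 8 of the 10 other ASVs lie right of it, and none of the points has an adjusted edgeR p under 0.05.

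UCG-014 ran the other way in its means, with the genotypes overlapping. Its 4 ASVs took 0.00706%, 0.424%, 1.37% and 1.06% of reads in knockouts 1 to 4 and 0.254%, 0.0207%, 0.233% and 0.464% in controls 1 to 4. Knockouts 3 and 4 exceeded every control, and knockout 1 was lower than every control. The means were 0.716% ± 0.616 in knockouts and 0.243% ± 0.181 in controls (SD, n = 4 mice each). The edgeR log2 fold change was 1.76 ± 1.24 (adjusted p = 0.742), and without knockout 1 it was 2.38 ± 1.01 (adjusted p = 0.281).

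UCG-014 was essentially 2 ASVs. ASV2485 held 62.8% of its reads and was at 0%, 0.172%, 0.918% and 0.601% in knockouts 1 to 4 and at 0.235%, 0.0207%, 0.223% and 0.357% in controls 1 to 4. Its genotypes overlapped, and its edgeR log2 fold change was 1.34 ± 1.47 (adjusted p = 0.885). ASV2997 held 36.4% and was at 0%, 0.248%, 0.446% and 0.457% in knockouts and at 0.0127%, 0%, 0.00991% and 0.107% in controls. Here knockouts 2, 3 and 4 exceeded all controls, with an edgeR log2 fold change of 3.54 ± 1.84 (adjusted p = 0.487). The value was 3.92 ± 1.35 without knockout 1 (adjusted p = 0.222) and 5.62 ± 2.23 without control 4 (adjusted p = 0.475). Within UCG-014, ASV2997 supplied 58.5%, 32.5% and 43.2% of reads in knockouts 2, 3 and 4 and 5.0%, 0%, 4.3% and 23.0% in controls 1 to 4. In knockout 1 all 16 reads of UCG-014 belonged to ASV3034, which no other mouse carried, and ASV3040 held 0.5% of the lineage's reads. ASV3034 and ASV3040 are named here after their values were seen.

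Set against each other within a mouse, vadinBB60 and UCG-014 reads differed widely between mice. The log2 ratio of vadinBB60 to UCG-014 reads was 3.34, 0.22, -2.16 and -4.16 in knockouts 1 to 4 and 1.24, 7.63, 1.51 and 0.10 in controls 1 to 4. It was above 0 in all 4 controls and in 2 knockouts. The highest ratios were in control 2 and knockout 1, whose vadinBB60 shares were 4.10% and 0.0715%. The ratio was chosen after the values were seen, and its means differed by -3.31 (knockout minus control) with a two-sided exact permutation p of 0.229, or 0.343 after adjustment over the 3 lineage ratios computed.

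Anaerovoracaceae, fermenters formerly listed as Family XIII, ranked the 4 knockouts in the same order as UCG-014, but not the controls. Its 5 ASVs took 0.00265%, 0.266%, 0.911% and 0.485% in knockouts 1 to 4 and 0.287%, 0%, 0.159% and 0.0746% in controls 1 to 4. The genotypes overlapped, with knockout 1 and control 2 lowest in their groups. The means were 0.416% ± 0.384 and 0.130% ± 0.123 (SD, n = 4 mice each), and the edgeR log2 fold change was 1.78 ± 1.50 (adjusted p = 0.840). ASV3124, which has no genus name, led the family in all 7 mice with reads and gave 69.2% to 100% of them. It was at 0.00265%, 0.249%, 0.825% and 0.424% in knockouts and at 0.249%, 0%, 0.124% and 0.0516% in controls. Its edgeR log2 fold change was 2.09 ± 1.51 (adjusted p = 0.709).

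The named genera of Anaerovoracaceae were scarce. Family_XIII_AD3011_group had a single ASV with 215 reads in 5 mice, 0.0333% ± 0.0323 in knockouts and 0.0118% ± 0.0180 in controls (SD, n = 4 mice each). Anaerovorax had a single ASV with 59 reads in 5 mice, 0.00459% ± 0.00418 and 0.0113% ± 0.0164. The genus-level edgeR log2 fold changes were 1.81 ± 1.70 and -1.03 ± 1.50, both with an adjusted p of 0.949. Both genera overlapped between genotypes and were missing from knockout 1 and control 2. The [Eubacterium]_brachy_group, named after its values were seen, had 19 reads in 2 mice and was not tested.

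Monoglobus, a genus known for degrading pectin, was the only genus of Monoglobaceae. The family took 0%, 0.503%, 0.340% and 0.0366% in knockouts 1 to 4 and 0.0148%, 0%, 0.357% and 0.00246% in controls 1 to 4. It was abundant in knockouts 2 and 3 and control 3 and at or near 0 in knockout 1 and controls 1, 2 and 4. ASV3472 gave 1418 of its 1422 reads. The means were 0.220% ± 0.243 and 0.0935% ± 0.176 (SD, n = 4 mice each), and the edgeR log2 fold change was 1.15 ± 1.93 (adjusted p = 0.850). Without control 3 it was 4.96 ± 2.15 (adjusted p = 0.393).

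Candidatus Arthromitus was the only genus of Clostridiaceae and consisted of ASV3619, seen in every mouse. It took 0.00176%, 0.0474%, 0.0100% and 0.116% in knockouts 1 to 4 and 0.0211%, 0.0881%, 0.0330% and 0.00574% in controls 1 to 4. The 328 reads spread over both genotypes with full overlap, and knockout 4 was highest with 174 reads. The means were 0.0437% ± 0.0519 and 0.0370% ± 0.0359 (SD, n = 4 mice each). The genus-level edgeR log2 fold change was 1.03 ± 1.23 (adjusted p = 0.949), and it turned to -1.03 ± 1.08 without knockout 4. Segmented filamentous bacteria live mainly in the ileum, and the ileum was not sampled, so these are levels in stool.

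The remaining lineages were rare, and none separated the genotypes. Peptococcus, the genus of Peptococcaceae, had 119 reads and took 0%, 0.0187%, 0.0208% and 0.00731% in knockouts and 0.0148%, 0.0156%, 0.0429% and 0.0131% in controls. Its family-level edgeR log2 fold change was -0.84 ± 1.04 (adjusted p = 0.850), and it was missing from knockout 1 alone. Romboutsia, the genus of Peptostreptococcaceae, had 135 reads in 2 ASVs and took 0%, 0.0438%, 0.0123% and 0.0133% in knockouts and 0.0380%, 0%, 0.0165% and 0.00819% in controls. It was missing from knockout 1 and control 2, with an edgeR log2 fold change of 0.14 ± 1.36 (adjusted p = 0.999).

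Christensenellaceae, a family studied in humans for its heritability, had a single ASV with 55 reads in 5 mice. Its mean shares were 0.00480% ± 0.00366 in knockouts and 0.00786% ± 0.0110 in controls (SD, n = 4 mice each), and the edgeR log2 fold change was -0.0024 ± 1.51 (adjusted p = 0.999). Anaerofustaceae had 3 reads in knockout 2 and 5 reads in control 3, from a different ASV in each. A Clostridia ASV without an order name had 3 reads in control 1. The last 2 lineages did not pass the filter and were not tested.

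Knockout 1 and control 2, the deepest and the shallowest library, each lacked many members. Of the 34, 23 were missing from knockout 1 and 18 from control 2, of which 14 were missing from both, 9 from knockout 1 alone of the pair and 4 from control 2 alone. Of the 14, ASV2997 and ASV3472 were among the most abundant members elsewhere. ASV3124 had 6 reads in knockout 1 and 0 in control 2. The vadinBB60 group parted these mice, with 0.0715% of reads in knockout 1 and 4.10% in control 2. With both mice left out, the edgeR log2 fold change was -1.10 ± 0.61 for the vadinBB60 group (adjusted p = 0.385) and 2.15 ± 0.99 for UCG-014 (adjusted p = 0.309). What set these mice apart from the others of their genotype was not tested.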

How the data were processed

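Stool DNA of 8 mice was amplified at the V4 region of the bacterial 16S gene, per the labels' protocols. The deposited table holds raw read counts per ASV, made by the authors with DADA2 as the table's name states. R 4.5.1 and limma are named in the submitters' processing notes without a role. How reads were filtered, how chimeras were removed and which taxonomy was used is not given in the sources used here. Taxonomy strings in the table were taken as given. Mitochondrial reads (302) stayed in the totals.

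Counts were summed per family (to 5 levels of the string this is the lineage) and per genus. A unit was tested if 3 or more mice had at least 10 reads of it, by the robust quasi-likelihood test of edgeR 4.0.16 (R 4.3.3) with TMM factors, no covariate, and Benjamini-Hochberg adjustment over all units of the level, with a threshold of 0.05. TMM factors of families ran from 0.405 in knockout 1 to 1.42 in knockout 3. The median log2 fold change over all families was -0.0024 under TMM but -0.40 when scaled by total reads, and over all ASVs 0.19 and -0.33. Shares are percent of all reads, with 95% Wilson intervals reaching at most 0.203 percentage points from the value for single lineages and ASVs, and PCR reads carry no molecular identifiers. A floor of 3 reads was used for counts of 0. Presence at equal depth is the hypergeometric expectation at 38578 reads. Scripts were tested on simulated data.

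Alternatives were DESeq2 1.42.0 (poscounts), limma-voom and centred log-ratios (limma 3.58.1, pseudocounts 0.5 and 1), total reads, TMMwsp, no filter, 10 reads in 5 mice, Clostridia reads only, log2 library size as a covariate, other denominators, 2 reads for presence, exact permutation over 70 assignments, and leaving out mice. DESeq2 without its outlier and mean filters, with all mice and without control 2, was added after the data were seen. Members, lists and tests were chosen with earlier results of these data known. Named are all lineages, genera in at least 3 mice, the 15 ASVs of highest mean share and ASVs with an unadjusted edgeR p under 0.05. Other ASVs were named after their values were seen. All p-values treat mice as independent, which shared cages and litters may breach.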

Additional observations from a re-analysis of the deposited data

Results flagged for a closer look

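A mouse is listed when its gap to the nearest of its 4-mouse group took more of the group's range than Dixon's 95% critical value allows. This held for 13 of the 56 groups examined, 3 of them with the other mice at 0. In all 13 the listed mouse was the highest of its group. The critical value would list about 1 in 20 groups of normally distributed values. Shares with zeros and uneven spread do not meet that condition, so the 13 cannot be set against that rate. The groups overlap in content, since lineages contain their ASVs.

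Control 2 stood apart for all members together (4.23% of reads, other controls 1.07% to 1.51%) and for the vadinBB60 group (4.10%, others 0.498% to 0.662%). It also did for 3 ASVs of that group, ASV2952 (0.638%, others 0.0139% to 0.0727%), ASV2962 (0.353%, others 0.0139% to 0.0479%) and ASV2949 (0.244%, others 0% to 0.0380%). Control 3 stood apart for Monoglobaceae (0.357%, others 0% to 0.0148%), for its ASV3472 (0.350%) and for Peptococcaceae (0.0429%, others 0.0131% to 0.0156%). Control 4 did for ASV2997 of UCG-014 (0.107%, others 0% to 0.0127%). Among knockouts, knockout 2 stood apart for ASV3373 of the vadinBB60 group (0.111%, others 0.0110% to 0.0247%). The 3 cases with all other mice at 0 were Anaerofustaceae in knockout 2 (0.00216%) and in control 3 (0.00826%), and the Clostridia ASV without an order name in control 1 (0.00634%), each resting on at most 5 reads.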

How the results depend on the processing

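No paired analysis was possible because the labels give no replicate numbers shared between knockouts and controls. Over 31 results, 591 alternatives were compared. In 557 a tested result kept its direction and side of the threshold, a count of calls stayed at 0, or an untested value moved by less than 1 SD. In 2 of these the log2 ratio of the mean shares of all members, -0.28, still changed sign, to 0.12 without knockout 1 and 0.38 without control 2 (range -0.72 to 0.38). No tested result had passed in edgeR with all mice, so a result could change side only by gaining a call. The 557 include the vadinBB60 group with library size as a covariate, at -0.43 in place of -2.49. They also include presence at equal depth without knockout 1, at -0.093 ASVs in place of -2.86. In 30 the log2 fold change of a result that had not passed turned its sign. DESeq2 without its outlier and mean filters gave the only calls of members, 1 family (the vadinBB60 group, -2.43, adjusted p = 0.0380) and 1 ASV (ASV2964, -4.19, adjusted p = 0.0396), and both were lost without control 2. Over its other alternatives that gave one, the adjusted p of the vadinBB60 group ran from 0.0828 to 0.932. Leaving out 1 mouse gave -1.03 to 1.79 for Candidatus Arthromitus, -0.43 to 1.39 for Peptostreptococcaceae, -0.42 to 0.47 for Christensenellaceae, -2.69 to 0.032 for ASV3027 and -1.79 to 0.48 for ASV2962. For the same settings the vadinBB60 group kept its sign, from -2.90 to -1.29. Christensenellaceae missed the filter without knockout 1, control 1 or control 4, so its range covers only the other mice left out. With log2 library size as a covariate Peptococcaceae stood at 0.11, ASV3027 at 5.16, ASV2952 at 0.21, ASV2962 at 2.52 and ASV2949 at 11.3. Leaving out knockout 1 and control 2 together gave 0.47 for ASV3027 and 0.50 for ASV2962. Under limma-voom the values were -0.066 for Peptostreptococcaceae, 0.15 for Christensenellaceae, -0.72 for ASV2485 and 0.17 for ASV2962. Centred log-ratios with a pseudocount of 0.5 gave -0.061 for Peptostreptococcaceae, 0.16 for Christensenellaceae and -0.76 for ASV2485, and with a pseudocount of 1 they gave -0.066 for Peptostreptococcaceae and -0.49 for ASV2485. Clostridia reads only gave -0.21 for Peptostreptococcaceae, and DESeq2 with or without its filters gave 0.018 for Christensenellaceae. DESeq2 without filters and without control 2 gave -0.11 for Peptostreptococcaceae and 0.51 for ASV2962. The causes of these sign changes were not tested. DESeq2 under default filters gave no adjusted p for the vadinBB60 group. Depth limits the rare lineages most, since 5 members had under 10 reads in all, and every knockout library was deeper than every control library.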
